A study of Mus musculus with 12 samples.

Results

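The lysyl oxidase family consists of Lox, Loxl1, Loxl2, Loxl3 and Loxl4, and its 5 genes were taken by symbol from a count table of 56748 genes, in which 16465 genes, all 5 members among them, were abundant enough to be tested. They were followed across 12 RNA-seq libraries from the mouse line C3H10T1/2 (10T1/2 cells, mesenchymal cells that serve as a model of stromal progenitors). In each of the 3 groups of 4 libraries, cells were kept 1 h in suspension. This step had 0.5% serum by the sample records and was serum-free by the methods of the study. By those methods, cells had been starved overnight in 0.5% serum and were seeded on the matrix in 0.5% serum as well. They were cultured for 18 h on 12 kPa plates that carried 0.05 mg/ml type I collagen. The coating was collagen alone in col1, collagen polymerized with 30 nM recombinant aortic carboxypeptidase-like protein (ACLP, a secreted collagen-binding protein) in col1-ACLP, and the same ACLP matrix with 5 µM SB431542, an inhibitor of the TGFβ receptor kinase ALK5, in col1-ACLP+SB. The inhibitor was not given on collagen without ACLP, so an action of the inhibitor on ACLP-driven expression and an action on the basal level cannot be told apart. A single cell line was used, and the 4 libraries of a group are called biological replicates in the study, though the sample records do not say whether they came from separate cultures, so p-values measure the spread between these libraries.

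Lysyl oxidases are secreted copper-dependent amine oxidases that convert lysine and hydroxylysine side chains of collagen and elastin to reactive aldehydes, which then condense into the covalent crosslinks that stiffen the matrix. LOX and LOXL1 are made with a propeptide that BMP1-type proteinases remove, whereas LOXL2, LOXL3 and LOXL4 carry scavenger receptor cysteine-rich domains in front of the shared catalytic domain. Raised lysyl oxidase expression is a known feature of activated fibroblasts and fibrotic tissue.

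Library totals ran from 29246154 to 52201922 counts. Of the mesenchymal markers, Vim, Pdgfrb, Prrx1 and Col1a2 were abundant, with 7 of 8 mesenchymal markers at 1 CPM or more in all 12 libraries and a summed level of 13310 to 18780 CPM. Markers of leukocytes summed to 5.32 to 10.7 CPM (Ptprc at most 0.182, Adgre1 at 0, Cd68 5.32 to 10.0), of endothelium to 4.30 to 9.85 (Tek 3.96 to 9.57), of epithelium to 1.88 to 3.84 (Epcam at 0, Cdh1 in all libraries), of adipocytes to at most 0.269, of skeletal muscle to at most 0.0709 (Myod1 and Myog at 0) and of neural cells to 6.60 to 15.1 (Tubb3 5.83 to 14.3). On the first principal component (19.5% of the variance) col1 replicate 2 stood apart at 86.7, against 8.97 to 11.1 for the other col1 libraries and -20.6 to -10.0 for the 8 libraries with ACLP. On the second component it was at -29.2, against 35.2 to 37.6 for the other col1 libraries and -24.4 to 0.896 for those with ACLP. The fold changes, ratios and shares of the family and the list counts that use col1 are also given without col1 replicate 2.

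Levels are given as CPM (counts relative to the library total) scaled by edgeR's TMM factors, and to be called higher or lower a gene had to pass both thresholds, namely an adjusted p under 0.05 over all 16465 genes (edgeR quasi-likelihood test, Benjamini-Hochberg adjustment) and a log2 fold change beyond 0.58. On ACLP-containing collagen, Lox and Loxl4 were called higher, so that 2 of 5 members were called, where 2.61% of all genes were called higher. No member was called lower, against 2.36% of all genes. The same 2 members were called higher in col1-ACLP+SB relative to col1, where 1.27% of all genes were called higher, and none was called lower, against 1.01%. Between col1-ACLP+SB and col1-ACLP no member passed both thresholds, as was so for all but 0.128% of genes. Since both comparisons with col1 use the same 4 control libraries, they are not independent of each other.

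**Figure D1:**
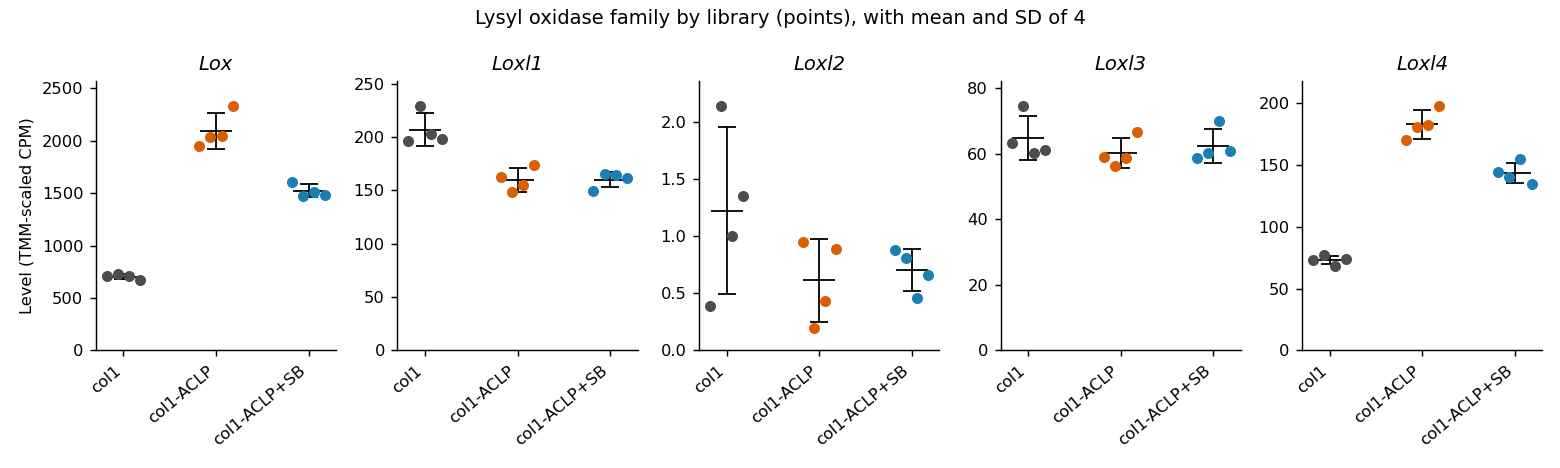
Level of each lysyl oxidase in TMM-scaled CPM (vertical axes start at 0 and differ between panels), with 1 point per library and the mean and SD of 4 libraries per group as bars. The col1 points of Lox and Loxl4 lie below all points of the other groups, those of Loxl1 lie above them, and those of Loxl2 and Loxl3 overlap them.

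Lox, the founding member that crosslinks fibrillar collagen and elastin, lies on chromosome 18 from 52649139 to 52662939 on the minus strand of GRCm39 (ENSMUSG00000024529). In TMM-scaled CPM the 4 col1 libraries held 710, 725, 707 and 673, the col1-ACLP libraries 1951, 2035, 2049 and 2337, and the col1-ACLP+SB libraries 1610, 1476, 1516 and 1483. The 3 groups did not overlap, with every col1-ACLP library above every col1-ACLP+SB library and these above every col1 library. The level was 2.97-fold higher in col1-ACLP than in col1 (log2 fold change 1.57 ± 0.048, SE, n = 4 per group, adjusted p = 1.2e-17), the 125th largest increase of 16465 genes and the second smallest p-value (rank 2). Per kb of gene length, the order of Lox among the 16465 genes moved from 219 in col1 to 47 on col1-ACLP and 71 in col1-ACLP+SB. With SB431542 present, 58.8% of the CPM increase over col1 and 70.7% of the log2 fold change remained. Without col1 replicate 2, the log2 fold change from col1 was 1.59 for the former and 1.13 for the latter group. A long noncoding gene, Gm41724, lies on the opposite strand and overlaps Lox by 1207 bases. It held 0.171 to 0.394% as many counts as Lox in the 12 libraries and had a log2 fold change of 1.30 between col1-ACLP and col1 (adjusted p = 2.6e-04). As the strand setting of the counting was not given in the sources used here, reads of this pair cannot be told apart.

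Loxl1, the paralog best known for elastic fibre maintenance, lies on chromosome 9 from 58195021 to 58220469 on the minus strand (ENSMUSG00000032334) and overlaps no other gene of the table. Its CPM in col1 was 196, 230, 203 and 198, in col1-ACLP 163, 148, 155 and 174, and in col1-ACLP+SB 150, 165, 164 and 161. The lowest col1 library lay above the highest library with ACLP, and the groups with and without SB431542 overlapped. The log2 fold change in col1-ACLP was -0.37 ± 0.058 (SE, 95% interval -0.49 to -0.25, adjusted p = 3.3e-05), a change in level of -22.7%, which passed the threshold on the adjusted p but not that on size. At an adjusted p under 0.05 alone, 8.41% of all genes were lower. In col1-ACLP+SB the log2 fold change from col1 was -0.37 as well (interval -0.49 to -0.25, adjusted p = 6.5e-05), where 4.54% of genes were lower at that threshold. The difference between col1-ACLP+SB and col1-ACLP was 0.0018, with an interval from -0.12 to 0.12. Col1 replicate 2 was the highest of the 12 libraries for Loxl1, and without it the log2 fold changes from col1 were -0.32 (adjusted p = 2.4e-04) and -0.31 (adjusted p = 4.5e-04).

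Non-overlapping libraries were not rare among all genes, since the 4 col1-ACLP libraries all lay above the 4 col1 libraries in 10.9% of genes and below them in 10.3%. Among the members, Lox and Loxl4 were of the former kind and Loxl1 of the latter. The same 3 members separated col1-ACLP+SB from col1, where 6.70% of all genes were higher and 6.32% lower without overlap. Every col1-ACLP+SB library lay below every col1-ACLP library for Lox and Loxl4, as was so for 4.52% of genes.

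Loxl4, whose product is a secreted collagen crosslinker of the scavenger receptor domain type, lies on chromosome 19 from 42582421 to 42601252 on the minus strand of GRCm39 (ENSMUSG00000025185) and overlaps no other gene of the table. Its CPM was 72.8, 76.7, 68.6 and 73.6 in col1, 170, 180, 182 and 198 in col1-ACLP, and 145, 141, 154 and 134 in col1-ACLP+SB. As for Lox, the 3 groups did not overlap and col1-ACLP+SB lay between the other groups. The level was 2.50-fold higher in col1-ACLP than in col1 (log2 fold change 1.32 ± 0.058, SE, interval 1.21 to 1.44, adjusted p = 1.0e-14), the 213th largest increase and the 9th smallest p-value among all genes tested. In col1-ACLP+SB it was 1.97-fold above col1 (log2 fold change 0.98 ± 0.057, interval 0.86 to 1.09, adjusted p = 7.4e-12), so that 73.7% of the log2 fold change and 64.2% of the CPM increase remained. Its place in the order of level per kb moved from 2861 in col1 to 987 on col1-ACLP and 1339 in col1-ACLP+SB. Leaving out col1 replicate 2 gave log2 fold changes of 1.35 and 1.00.

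A promoter of Loxl4 is shown because this is the member called higher for which the RefSeq promoter table has an entry (1 of 5 members). It covers the 250 bases before the start of the gene on the minus strand of GRCm38.p6, chr19:42612807-42613056, a build other than that of the gene position above. It is written 5′ to 3′ with CAGAC, a core of SMAD binding elements, in capitals.
Loxl4 promoter: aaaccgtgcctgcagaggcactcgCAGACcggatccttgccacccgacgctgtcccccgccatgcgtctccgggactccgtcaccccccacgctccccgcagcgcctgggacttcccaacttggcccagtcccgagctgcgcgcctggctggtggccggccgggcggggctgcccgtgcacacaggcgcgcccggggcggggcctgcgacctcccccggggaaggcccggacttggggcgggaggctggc
The window is 76.0% G or C, against a median of 52.4% over 32851 promoters of the same length, of which 3.3% were at or above that value. CAGAC occurred once on either strand, from -226 to -222 relative to the start, and 42.2% of all promoters held it. TATAAA (12.4% of promoters), ACGTG (16.6%), TGANTCA (6.7%), GGAATG (12.6%) and the CArG box (1.5%) had no match on either strand in this window. These matches are letters in a window and no measure of binding.

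Loxl3, which is required for palate and spine development in mice, lies on chromosome 6 from 83011154 to 83029543 on the plus strand (ENSMUSG00000000693). In CPM, col1 libraries held 63.2, 74.7, 60.2 and 61.2, col1-ACLP libraries 58.8, 56.2, 58.6 and 66.7, and col1-ACLP+SB libraries 58.6, 60.1, 69.8 and 60.9. All 3 groups overlapped. The log2 fold change from col1 was -0.11 in col1-ACLP (interval -0.27 to 0.046, adjusted p = 0.38) and -0.055 in col1-ACLP+SB (interval -0.21 to 0.10, adjusted p = 0.78), and col1-ACLP+SB differed from col1-ACLP by 0.056 (interval -0.10 to 0.21, adjusted p = 0.85). Col1 replicate 2 was the highest of the 12 libraries, and without it the log2 fold changes from col1 were -0.034 and 0.021 (adjusted p = 0.83 and 0.93). The intervals from all 12 libraries lie within the 0.58 threshold on size. Htra2, a mitochondrial protease gene on the opposite strand, overlaps Loxl3 by 1297 bases and held 26.8 to 43.7% as many counts as Loxl3 in the 12 libraries. Its log2 fold change in col1-ACLP was 0.30 (adjusted p = 0.034), and its part in the level of Loxl3 was not tested.

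Loxl2, which crosslinks basement membrane collagen IV among other substrates, lies on chromosome 14 from 69846517 to 69933283 on the plus strand (ENSMUSG00000034205) and was near the lower limit of detection. Its raw counts were 15, 81, 33 and 58 in col1, 31, 7, 13 and 25 in col1-ACLP, and 31, 24, 24 and 20 in col1-ACLP+SB, or 0.194 to 2.14 CPM over all 12 libraries. The groups overlapped, and counting error alone spans 64.3 to 101 counts for the highest library and 2.81 to 14.4 for the lowest (exact 95% Poisson intervals). The log2 fold change from col1 was -0.99 ± 0.56 in col1-ACLP (interval -2.16 to 0.17, adjusted p = 0.26) and -0.80 ± 0.56 in col1-ACLP+SB (interval -1.95 to 0.35, adjusted p = 0.48), and the values were -0.58 and -0.38 without col1 replicate 2. Between col1-ACLP+SB and col1-ACLP it was 0.19 (interval -0.99 to 1.37, adjusted p = 0.95). Changes of either sign and of the size seen for Lox and Loxl4 in the last comparison lie within this interval. Within groups the counts of some libraries lay outside the counting intervals of others, and how much of the error comes from depth and how much from the spread between libraries was not tested. Its overlapping genes Gm27177, Mir6950 and Gm37513 held at most 5 counts in any library, which for Gm27177 came to at most 57.1% and for Mir6950 to at most 9.68% of the counts of Loxl2, and their part in its level was not tested.

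**Figure D2:**
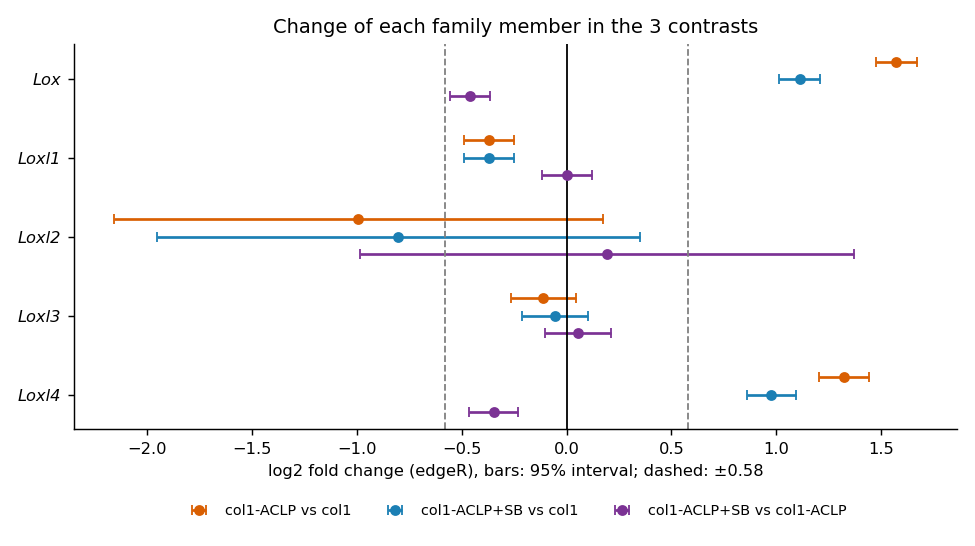
Log2 fold change of each lysyl oxidase from edgeR (horizontal axis) in the 3 contrasts, with 95% intervals as bars and dashed lines at the size threshold of 0.58. Lox and Loxl4 lie at 1.57 and 1.32 for col1-ACLP against col1, Loxl1 lies at -0.37 for both contrasts with col1, and the bars of Loxl2 are the widest.

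Lox was lower in col1-ACLP+SB than in col1-ACLP by a log2 fold change of -0.46 ± 0.047 (SE, adjusted p = 5.5e-06) and Loxl4 by -0.35 ± 0.056 (interval -0.46 to -0.23, adjusted p = 0.0015), with ranks 2 and 23 by p-value among all genes. Both passed the threshold on the adjusted p, as 0.905% of genes did in that direction and 0.571% in the other, and both missed that on size. The fitted changes in level were -27.3% and -21.4%. Loxl1, Loxl3 and Loxl2 had adjusted p-values of 0.995, 0.85 and 0.95 in this comparison. At an unadjusted p under 0.05, 2 of 5 members (Lox and Loxl4) passed, against 12.8% of all genes, and with both thresholds (adjusted p and 0.58) DESeq2, like edgeR, called 0.

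**Figure D3:**
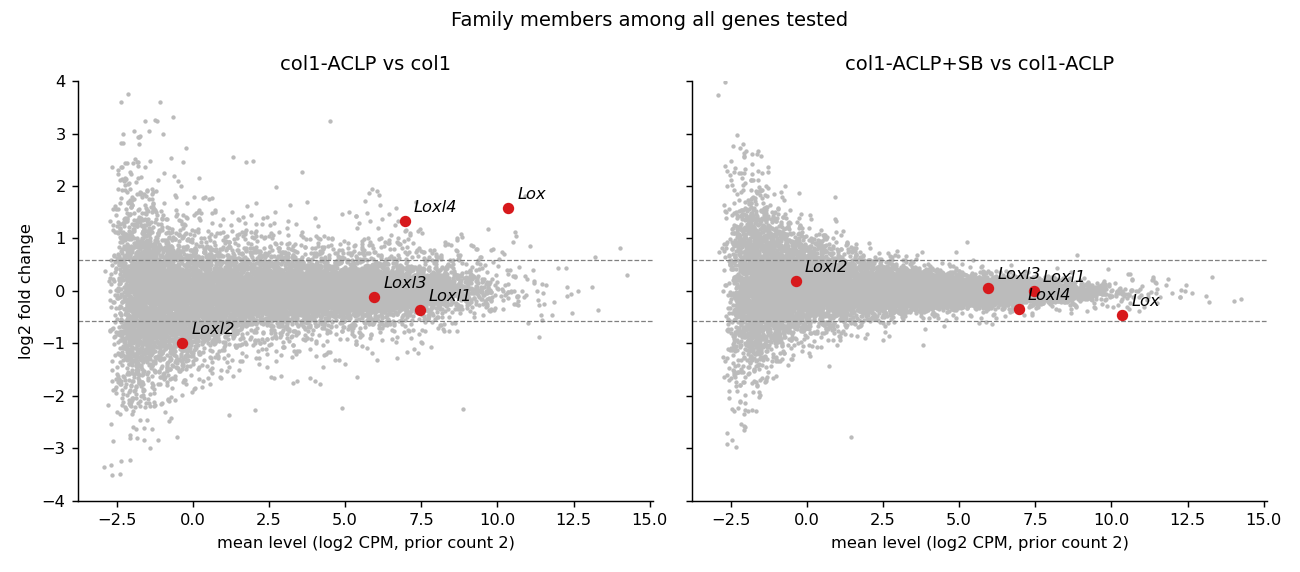
Log2 fold change against mean level in log2 CPM for all 16465 genes tested (grey) with the 5 lysyl oxidases in red, for col1-ACLP against col1 and for col1-ACLP+SB against col1-ACLP. Dashed lines mark 0.58 and 4 genes lie outside the axis range of 4, while Lox and Loxl4 sit above the upper line in the first panel and between the lines in the second.

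Ratios between members within a library do not depend on how libraries are scaled, and the 10 pairs were compared in 3 contrasts by an exact two-sided permutation test of 4 against 4 libraries, with a smallest possible p of 0.0286 and Benjamini-Hochberg adjustment over the 30 comparisons. In col1-ACLP against col1, 7 of 10 ratios passed an adjusted p of 0.05, including all 6 pairs without Loxl2. All 18 ratios that passed in the 3 contrasts were at the smallest possible p and had the same adjusted p of 0.0476. They therefore passed together, and the adjusted p gives no separate evidence for each. The log2 count ratio of Lox to Loxl1 was 1.77 ± 0.083 (SD, n = 4) in col1, 3.71 ± 0.088 in col1-ACLP and 3.25 ± 0.12 with SB431542, and these did not overlap (exact permutation p = 0.0286, adjusted p = 0.0476 for each contrast). The log2 count ratio of Loxl1 to Loxl4, which is not divided by gene length, was 1.50 ± 0.083 in col1, -0.19 ± 0.093 on col1-ACLP and 0.16 ± 0.11 in col1-ACLP+SB. Per kb the mean of Loxl1 remained above that of Loxl4 in all 3 groups. The induced members did not move in step, as the log2 ratio of Lox to Loxl4 was 3.27 ± 0.074 in col1 and 3.52 ± 0.031 in col1-ACLP, a difference of 0.25 (exact permutation p = 0.0286, adjusted p = 0.0476). In col1-ACLP+SB this ratio was 3.41 ± 0.084, lower than in col1-ACLP by 0.11 (difference -0.11, same p) and overlapping col1 (difference 0.14, exact permutation p = 0.0571, adjusted p = 0.0857). The ratio of Loxl1 to Loxl3 was 0.26 lower in col1-ACLP than in col1 (difference -0.26, adjusted p = 0.0476 by the same permutation test) and had a difference of -0.050 between col1-ACLP+SB and col1-ACLP (adjusted p = 0.48). Against col1, 6 of 10 ratios passed in col1-ACLP+SB, and 5 of 10 passed between col1-ACLP+SB and col1-ACLP, all 5 without Loxl2. Of these 18 ratios, 105 of 144 tests with 1 library left out gave an adjusted p above 0.05, of which 92 were still at the smallest p the exact test allows (0.0286). The differences kept their sign, at 65.7 to 127% of their size with all libraries. Without col1 replicate 2, all 13 ratios that passed against col1 were above 0.05 (adjusted p = 0.0504 to 0.0952 by the permutation test), with 12 of them at the smallest p and differences at 80.4 to 107% of their size.

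Per kb of gene length, the summed level of the 5 members was 242 ± 10.3 CPM per kb (SD, n = 4) in col1, 543 ± 41.2 on col1-ACLP and 415 ± 12.0 in col1-ACLP+SB. The sum without Lox was 94.3 ± 6.77, 105 ± 6.35 and 96.3 ± 3.97 CPM per kb, and the libraries of the 3 groups overlapped. Without col1 replicate 2 the col1 sums were 237 ± 4.13 for the family and 90.9 ± 0.339 without Lox (SD, n = 3), and the latter no longer overlapped the other groups. Lox made up 61.0 ± 1.33% of the family per kb in col1, 80.6 ± 0.533% on col1-ACLP and 76.8 ± 1.20% in col1-ACLP+SB. The share of Loxl1 was 25.9 ± 0.950%, 8.94 ± 0.495% and 11.7 ± 0.800% in that order, that of Loxl3 5.82 ± 0.363%, 2.40 ± 0.0731% and 3.27 ± 0.272%, and that of Loxl4 7.17 ± 0.300%, 7.99 ± 0.170% and 8.21 ± 0.388%. Loxl2 was at most 0.155% in any library. Without col1 replicate 2 the col1 shares were 61.6 ± 0.771% for Lox, 25.5 ± 0.569% for Loxl1, 5.65 ± 0.156% for Loxl3 and 7.19 ± 0.363% for Loxl4. In order of level per kb, Lox came before Loxl1 in every group. The order after these was Loxl4 and then Loxl3, with means of 17.3 ± 0.797 and 14.1 ± 1.45 CPM per kb in col1, and Loxl2 came last. In col1-ACLP the libraries overlapped between Loxl4, at 43.4 ± 2.71 CPM per kb, and Loxl1, at 48.5 ± 3.33. This overlap and the order of Loxl4 and Loxl3 in col1 depend on the gene lengths used. The count table gives 4213 bases for Loxl4, 4603 for Loxl3 and 3297 for Loxl1. Their canonical transcripts have 5448, 4100 and 3330 bases. These shares are descriptions, and in bulk RNA more transcript per cell and more expressing cells cannot be told apart.

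**Figure D4:**
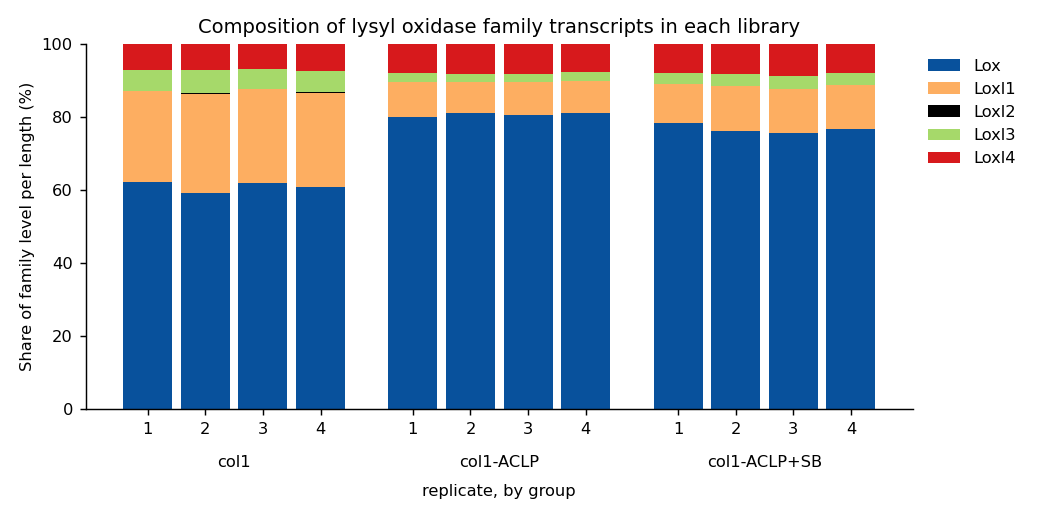
Share of each lysyl oxidase in the summed family level per kb of gene length (vertical axis, percent) in each of the 12 libraries, grouped by matrix. Lox takes 59.2 to 62.1% in the col1 libraries, 79.9 to 81.1% in the col1-ACLP libraries and 75.7 to 78.5% in the col1-ACLP+SB libraries, and Loxl2 is too low to be seen in most bars.

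The members differ in gene structure in the GENCODE vM39 annotation. The canonical transcripts of Lox and Loxl1 have 7 exons each and coding lengths of 1233 and 1821 bases, whereas those of Loxl2, Loxl3 and Loxl4 have 14, 14 and 15 exons and coding lengths of 2328, 2262 and 2271. Thus the members called higher came from both structural classes. Over all annotated transcripts of each member, 1 of the 10 pairs (Lox and Loxl1) shared any stretch of 30 bases, with 3 such stretches.

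Genes that process lysyl oxidases or bring them to their substrates were counted next, and 14 of a list of 16 were tested. In col1-ACLP, 5 of 14 were called higher and 1 lower, against 2.61% and 2.36% of all genes, and the median log2 fold change was 0.24, against -0.0099 for all genes. Fmod, a collagen-binding proteoglycan that directs crosslinking, had 32.6 ± 3.24 CPM (SD, n = 4) in col1 and 82.4 ± 5.00 in col1-ACLP (log2 fold change 1.34, adjusted p = 6.1e-13). Thbs1 (thrombospondin 1, which binds the pro-enzyme) had 1022 ± 38.8 and 2117 ± 184 CPM (1.05), Postn (periostin, a scaffold for BMP1 and LOX) 306 ± 10.9 and 620 ± 25.5 (1.02), Fbln5 (fibulin 5, which tethers LOXL1 to elastic fibres) 638 ± 7.10 and 1100 ± 26.7 (0.78), and Pcolce2 (a procollagen C-proteinase enhancer) 40.7 ± 5.74 and 61.8 ± 1.20 (0.60). Adamts14, a procollagen N-proteinase, fell from 37.2 ± 1.78 to 10.8 ± 1.74 CPM (log2 fold change -1.78, adjusted p = 1.6e-11). Bmp1, the proteinase that releases the LOX propeptide, was outside the rule for naming and is named after its values were seen. It had a log2 fold change of -0.39 (adjusted p = 3.3e-07), below the threshold on size. Tll1, a BMP1-type proteinase of the same list and also outside the rule, went the other way (0.49, edgeR adjusted p = 0.0089), below that threshold as well.

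In col1-ACLP+SB against col1, 4 of the 14 were called higher and 1 lower, against 1.27% and 1.01% of all genes (median 0.11), with log2 fold changes of 1.04 for Fmod, 0.81 for Thbs1, 0.74 for Postn, 0.61 for Fbln5 and -1.38 for Adamts14. Pcolce2 had 0.33 (adjusted p = 0.0049). Between col1-ACLP+SB and col1-ACLP no gene of the list passed both thresholds, and the adjusted p alone was passed by 4 in the lower direction (Postn -0.28, Thbs1 -0.24, Fmod -0.30 and Fbln5 -0.18), against 0.905% of all genes, and by Bmp1 in the higher (0.25), against 0.571%.

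All 12 genes of a list of collagen and elastin substrates were tested, of which 7 were called higher in col1-ACLP and none lower, against 2.61% and 2.36% of all genes (median log2 fold change 0.73). Col2a1, the fibrillar collagen of cartilage, had 911 ± 75.5 CPM in col1 and 3176 ± 471 in col1-ACLP (1.80). The minor fibrillar collagens Col11a1, Col5a1 and Col5a2 had log2 fold changes of 1.11, 0.93 and 0.86. At the adjusted p alone 9 of the 12 were higher and 2 lower, against 9.52% and 8.41% of all genes, the latter being the minor fibrillar chains Col5a3 (-0.25, adjusted p = 4.1e-04 by edgeR) and Col11a2 (-0.19, adjusted p = 0.0079), named after their values were seen. Col1a1 and Col1a2, the chains of type I collagen, had 11904 ± 161 and 7307 ± 124 CPM in col1 and 20962 ± 2484 and 11493 ± 902 in col1-ACLP (0.82 and 0.65). Eln, which encodes tropoelastin, was low throughout, at 5.85 ± 1.27 and 10.9 ± 2.83 CPM (0.90, adjusted p = 0.0011). In col1-ACLP+SB against col1, 5 of 12 were called higher (Col1a1 0.63, Col2a1 1.43, Col5a1 0.62, Col11a1 0.77 and Eln 0.74) against 1.27% of all genes, and the median was 0.50. Between col1-ACLP+SB and col1-ACLP none was called, and 5 were lower at the adjusted p alone, against 0.905% of all genes, with Col2a1 (-0.37) and Col11a1 (-0.34) the farthest from 0.

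Of 9 genes for collagen lysine hydroxylation and glycosylation, all tested, 2 were called higher in col1-ACLP, against 2.61% of all genes, and none in col1-ACLP+SB against col1, against 1.27%. Plod1, a lysyl hydroxylase whose product lysyl oxidases act on, had 203 ± 9.82 CPM in col1, 318 ± 9.79 on col1-ACLP and 296 ± 11.7 in col1-ACLP+SB, with log2 fold changes from col1 of 0.65 (adjusted p = 1.1e-10) and 0.55 (adjusted p = 6.4e-09, below the threshold on size). The other, Colgalt2, was at 0, 0, 0 and 2 counts in col1 and 4, 24, 18 and 2 in col1-ACLP, and no fold is given at these counts. At an adjusted p alone 8 of the 9 were higher in col1-ACLP, where 9.52% of all genes were, and the median of the list was 0.30. In col1-ACLP+SB against col1 the median of the list was 0.24, against 0.0046 for all genes. None of the 9 passed the adjusted p between col1-ACLP+SB and col1-ACLP, where 0.571% of all genes were higher and 0.905% lower.

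For copper supply, 7 of 8 genes were tested. In col1-ACLP none was called, against 2.61% of all genes higher and 2.36% lower. None was called in col1-ACLP+SB against col1 (1.27% and 1.01% of all genes) or between col1-ACLP+SB and col1-ACLP (0.128%). Sod3, an extracellular copper enzyme and the most abundant of the list, had 200 ± 7.91, 209 ± 13.9 and 204 ± 17.3 CPM in col1, col1-ACLP and col1-ACLP+SB. Its log2 fold changes from col1 were 0.061 and 0.027 (edgeR adjusted p = 0.56 and 0.88). Slc31a1, the high-affinity copper importer, had 55.1 ± 4.93, 68.0 ± 2.70 and 59.8 ± 4.55 CPM (0.30, adjusted p = 0.0027, and 0.12, adjusted p = 0.39). It overlaps Cdc26 on the opposite strand, which held 49.9% as many counts. At the adjusted p alone 1 gene of the list was higher (Slc31a1) and 2 lower in col1-ACLP, against 9.52% and 8.41% of all genes, the latter being Steap3 (-0.56) and Slc31a2 (-0.44), named after their values were seen. An unadjusted p under 0.05 was reached by 3 of 7 in each contrast, against 28.3% of all genes in col1-ACLP against col1, 19.9% in col1-ACLP+SB against col1 and 12.8% in col1-ACLP+SB against col1-ACLP.

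Among other crosslinking enzymes and amine oxidases, 6 of 9 genes were tested, and none was called in col1-ACLP against col1 (3 of 6 at an unadjusted p under 0.05, against 28.3% of all genes). The most abundant, Pxdn (peroxidasin, which forms sulfilimine bonds in collagen IV), had 626 ± 34.8 and 691 ± 15.2 CPM (log2 fold change 0.14, adjusted p = 0.030), and Aoc3, a membrane amine oxidase, had 28.5 ± 0.828 and 23.8 ± 2.37 (-0.27, adjusted p = 0.063). In col1-ACLP+SB against col1, 1 of the 6 was called lower, against 1.01% of all genes. This was Tgm5, named here after its values were seen (-1.01, adjusted p = 0.0047), at 4.58 ± 0.815 and 2.28 ± 0.416 CPM. In col1-ACLP Tgm5 was at 2.91 ± 0.596 CPM (-0.65 from col1, edgeR adjusted p = 0.051). Its difference between col1-ACLP+SB and col1-ACLP was -0.36 (adjusted p = 0.60). Aoc3 had -0.40 in col1-ACLP+SB against col1 (adjusted p = 0.0080), below the threshold on size. Tgm5 and Aoc3 were the 2 genes lower at the adjusted p alone in that contrast, against 4.54% of all genes. The counts of genes called in each direction in these 5 lists were the same without col1 replicate 2.

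**Figure D5:**
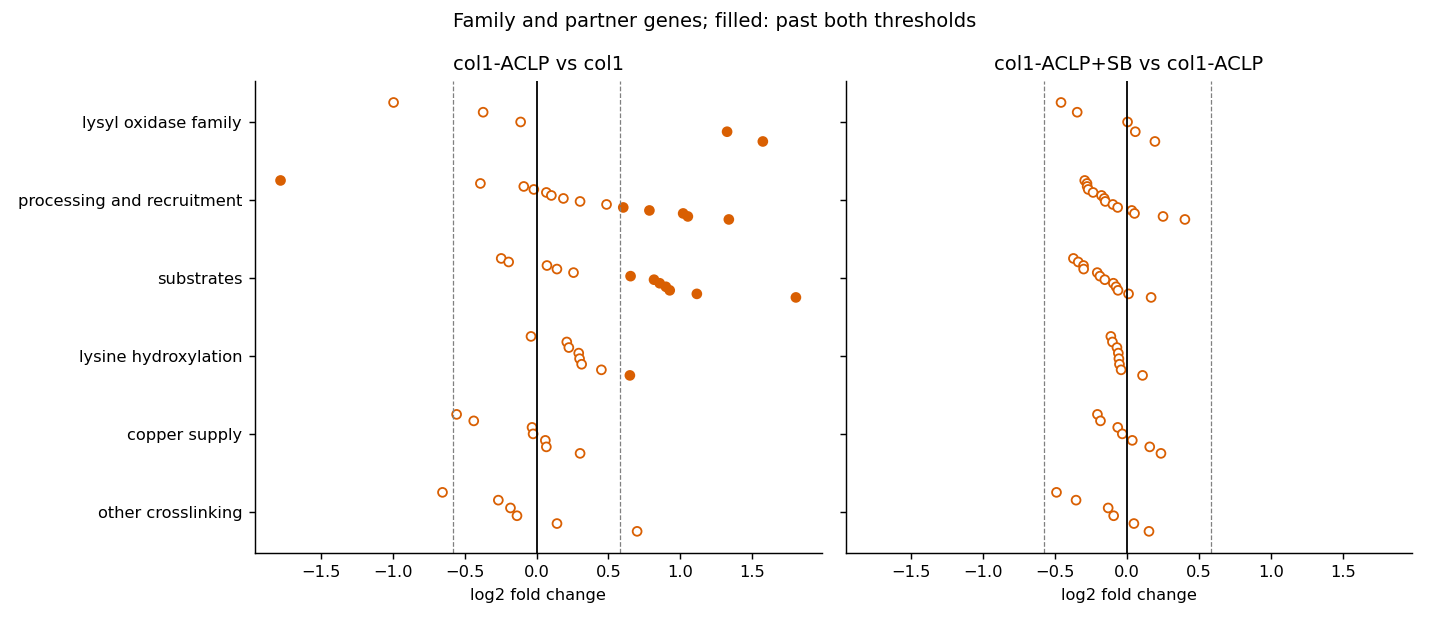
Log2 fold change (horizontal axis, the same scale in both panels) of every tested gene of the family and of 5 lists of partner genes, with Colgalt2 left out, for col1-ACLP against col1 and col1-ACLP+SB against col1-ACLP. Filled points pass both thresholds (adjusted p and 0.58, dashed), as 2 family members, 6 processing genes, 7 substrates and Plod1 do in the first panel and none do in the second.

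The genes whose log2 CPM followed each member most closely over the 12 libraries were taken from 9155 genes with a mean of at least 10 CPM. Since the libraries share 3 group means, such coefficients describe the group pattern first for Lox, Loxl4 and Loxl1. For Loxl2 and Loxl3 the groups overlapped. Col1 replicate 2 was the highest of the 12 libraries for Loxl1, Loxl2 and Loxl3, and the coefficients were not computed without it. Lox was followed by Anxa8 (Pearson r = 0.996), Fbln5 (0.994) and Gask1b (0.994), and Loxl4 by Ccn4, a matricellular protein gene (0.996), Fbln5 (0.996) and Postn (0.994). Fbln5 thus stood among the 3 closest genes of both induced members. Loxl1 was followed by Parp10 (0.955), Col5a3 (0.949) and Fam20c (0.947), which had log2 fold changes of -0.29, -0.25 and -0.46 in col1-ACLP against col1. The closest genes of Loxl3 were Ccdc85b (0.901), Faap100 (0.818) and Med25 (0.817), and those of Loxl2, where counting error is large, were Slc38a7 (0.867), Mrm1 (0.866) and 9030612E09Rik (0.863).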

How the data were processed

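Poly(A) RNA of 12 libraries was sequenced. Per the labels and the methods of the study, reads were mapped with HISAT2, and the table the authors deposited gives unnormalized read counts for each gene. The processing notes name mm10 and the methods of the study GRCm39. Of genes matched by identifier, 76.8% share a start or an end with GENCODE vM39 on GRCm39, and of genes matched by symbol, 1.1% share one with RefSeq on GRCm38.p6, a comparison in which annotation and build both differ. Positions are given as GRCm39. The counting tool, its strand setting and its treatment of reads with several positions were not given in the sources used here.

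All 12 libraries were fitted in R 4.3.3 with edgeR 4.0.16 (filterByExpr, 16465 genes kept and 40283 dropped, TMM, glmQLFit and glmQLFTest, group as the only term, Benjamini-Hochberg adjustment over all genes tested). Standard errors are the log2 fold change divided by the root of the F statistic. Thresholds followed the study's methods. Ratios used a prior count of 0.5. Within each group, every pair of libraries differed beyond counting noise (chi-square per degree of freedom 7.32 to 19.7). The number of counts limits precision at low levels, and intervals from counts cover counting error only. In simulated counts for col1-ACLP against col1 over 16465 genes, 174 of 200 genes changed by a log2 fold change of 1 were recovered and 3 unchanged genes were called.

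Members and lists were chosen with earlier results of these data known. Every member is named in each contrast. A partner gene is named where it was called in col1-ACLP against col1 or in col1-ACLP+SB against col1-ACLP, or, in a list without such a gene, where its mean level was among the 2 highest. Atp7b, Aoc1, F13a1, Tgm3, Pcsk5 and Tll2 did not pass the filter. Alternatives were other scalings, filters and tools (DESeq2 1.42.0, limma-voom 3.58.1), fits and thresholds, and each library left out in turn. Protein sequences were not used here.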

Additional observations from a re-analysis of the deposited data

Results flagged for a closer look

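No group of 4 libraries of a lysyl oxidase had a library far from the other 3 by Dixon's criterion at the 95% level. Among the 105 groups examined, which include the named genes of the 5 partner lists except Tll1, 9 did, and chance gives about 1 in 20. In CPM, col1-ACLP+SB replicate 3 was the highest for Postn (569, against 490 to 495) and for Thbs1 (1990, against 1715 to 1751). Bmp1 was at 618 in col1-ACLP+SB replicate 2, against 544 to 555, and Tgm5 at 2.02 in col1-ACLP replicate 4, against 3.10 to 3.27. Col2a1 was at 3878 in col1-ACLP replicate 4, against 2874 to 2979, and Slc31a1 at 64.0 in col1-ACLP replicate 3, against 68.9 to 69.9. Pcolce2 was at 49.2 in col1 replicate 2, the library that stood apart on the first principal component, against 37.1 to 38.8. Sod3 was at 189 in col1 replicate 3, against 204 to 205, and Colgalt2 at 0.0465 in col1 replicate 4, against 0 in the other 3.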

How the results depend on the processing

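Lox and Loxl4 were called higher against col1 in both contrasts under every alternative run, with log2 fold changes from 1.52 to 1.61 and 1.27 to 1.36 in col1-ACLP and from 1.08 to 1.13 and 0.94 to 1.01 in col1-ACLP+SB. With the adjusted p as the only threshold, Loxl1 (-0.37 in both contrasts with col1) and, in col1-ACLP+SB against col1-ACLP, Lox (-0.46) and Loxl4 (-0.35) also passed, so that 2 members in place of 0 were called in the last contrast. Loxl1 against col1 ran from -0.42 to -0.32 and from -0.39 to -0.31. Values near 0 changed sign. In col1-ACLP+SB against col1-ACLP, Loxl1 was -0.0034 with no filter on low counts, and with 1 library left out it ran from -0.034 to 0.043, Loxl2 from -0.11 to 0.48 and Loxl3 from -0.0058 to 0.11. Against col1, Loxl3 in col1-ACLP+SB ran from -0.11 to 0.021 and Loxl2 from -1.29 to -0.58 in col1-ACLP and from -1.09 to -0.38 in col1-ACLP+SB, the last value of each without col1 replicate 2. Log2 ratios with Loxl2 also changed sign, and for col1-ACLP+SB with 1 library left out they ran from -0.075 to 0.65 for Loxl1 to Loxl2 against col1, and against col1-ACLP from -0.66 to 0.037 for Loxl1 to Loxl2 and from -0.092 to 0.62 for Loxl2 to Loxl3. The adjusted p of the 18 ratios that passed ran from 0.0429 to 0.16 with 1 library left out. Without division by gene length Lox made up 67.1%, 83.8% and 80.6% of family counts in the 3 groups. The cause of these shifts was not tested.

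Libraries with the same replicate number did not deviate together (correlations from -0.037 to 0.036). With a replicate block the log2 fold changes in col1-ACLP were 1.57 for Lox, 1.32 for Loxl4 and -0.37 for Loxl1, and 2, 2 and 0 members were called in the 3 contrasts, as without the block. Scaling by library size alone put the median of all genes at -0.060 in col1-ACLP against col1. Counts were lowest for Loxl2, at 7 to 81. Leaving col1 replicate 2 out of list counts, ratios, sums and shares was chosen after seeing the data.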
